A study of Mus musculus with 11 samples.

Results

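Messenger RNA of cardiac progenitor cells labelled wild type was compared with that of C2C12 cells over all genes measured on mouse microarrays. Every array whose genotype entry is wild type was taken, 3 in all (1 each from atrium, ventricle and aorta), with every array whose cell type entry is C2C12, 3 in all. These are 6 of the 11 arrays of a study of cardiac mesoangioblasts, which are vessel-associated progenitor cells isolated from the heart. The study used C2C12, an established mouse myoblast line that fuses into muscle fibres in culture, as its positive control for skeletal muscle differentiation. Of 27567 genes named on the array, 15807 were bright enough to test.

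The WT-labelled cells carry no genetic change in their labels, and the KO-labelled cells of the same study, whose values are given side by side, are described as dystrophic and lacking beta-sarcoglycan. The labels give no strain, age, sex, passage or treatment for either group, and do not say whether the C2C12 cells were growing or had been made to differentiate. They describe the WT-labelled progenitors as able to form beating heart muscle cells, and the source entry of the C2C12 arrays, unlike their cell type entry, also reads cardiac progenitor cells. C2C12 is 1 cell line, and no label says that arrays came from separate animals or cultures, so the p-values refer to the spread among these samples and it may be of technical origin. The C2C12 arrays on slides 1 and 3 differed by 0.596 of the spread between repeated spots of 1 array and were counted as 1 sample (C2C12 1), leaving 3 WT-labelled and 2 C2C12 samples. All 3 WT-labelled arrays lay on slide 2 with the array of C2C12 2. The beta-sarcoglycan gene Sgcb was not lower in the KO-labelled samples than in the others, so groups are named here by their labels. The KO-labelled arrays also counted in choosing the genes to test and in the spread of the fit; with WT-labelled and C2C12 samples only, 3056 of 15272 genes were called.

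Skeletal myoblasts are committed by the transcription factors Myod1 and Myf5, and Myog then switches on the genes of the contractile apparatus as the cells leave the cell cycle and fuse. Heart-derived mesoangioblasts are mesenchymal cells from the vessel wall that share surface proteins with pericytes and stromal fibroblasts. Setting the WT-labelled cells beside C2C12 asks how far a cardiac progenitor lies from a committed skeletal myoblast, gene by gene.

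Each value below is a log2 signal relative to the 75th percentile of its own array, so 0 is as bright as that percentile and each step of 1 is a 2-fold change. WT-labelled values are given in the order atrium, ventricle, aorta, and C2C12 values in the order C2C12 1, C2C12 2. Differences are WT-labelled minus C2C12, with the standard error (SE) of the fit, n = 3 against 2 throughout, and adjusted p-values are from limma with Benjamini-Hochberg adjustment over the 15807 genes. A gene with an adjusted p under 0.05 is called higher or lower, and a gene is said to be on an array where its probe was well above background there. The difference has only a lower bound, given as "at least N-fold", for a probe that no array of 1 group showed well above background. That bound sets the brighter group's mean against the faintest signal that was well above background on each array of the other group, or the probe's own signal where that was higher. Where only some arrays of a group detected a probe, the difference rests in part on undetected signals, and how many arrays detected it is stated. A gene was tested where 3 or more of the 11 arrays detected it, so 677 genes were tested only by way of the WT-labelled arrays and 807 only by way of the C2C12 arrays. For the called genes among these the direction was largely fixed by that. Counts of called genes in a list that moved by over 1.5 times under another setting are given with their values, except moves between 0, 1 and 2. Signals of different genes come from different probes and are not set against each other.

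The cell types separated widely. A total of 4265 genes were called, 27.0% of those tested, with 2177 higher in the WT-labelled cells (13.8%) and 2088 lower (13.2%). The median difference over all genes was 0.03, and the median absolute difference was 0.43, against a median SD of 0.29 between the 3 WT-labelled samples and a median difference of 0.20 between the 2 C2C12 samples. Among the called genes, 656 were at least 4-fold higher and 952 at least 4-fold lower, while 1333 differed by under 2-fold. Detection itself differed for some called genes: 189 were well above background on every WT-labelled and no C2C12 array and 529 on every C2C12 and no WT-labelled array. With the slide as a block, which takes the difference from slide 2 where both groups lay, 2286 genes were called (14.5%), and 2210 of the 4265 were called in the same direction. All 4265 kept the same sign there, but this sets the same WT-labelled samples against C2C12 2 alone, so it is no independent check. The 3 WT-labelled and 2 C2C12 values did not overlap for 8559 genes (54.1%).

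**Figure D1:**
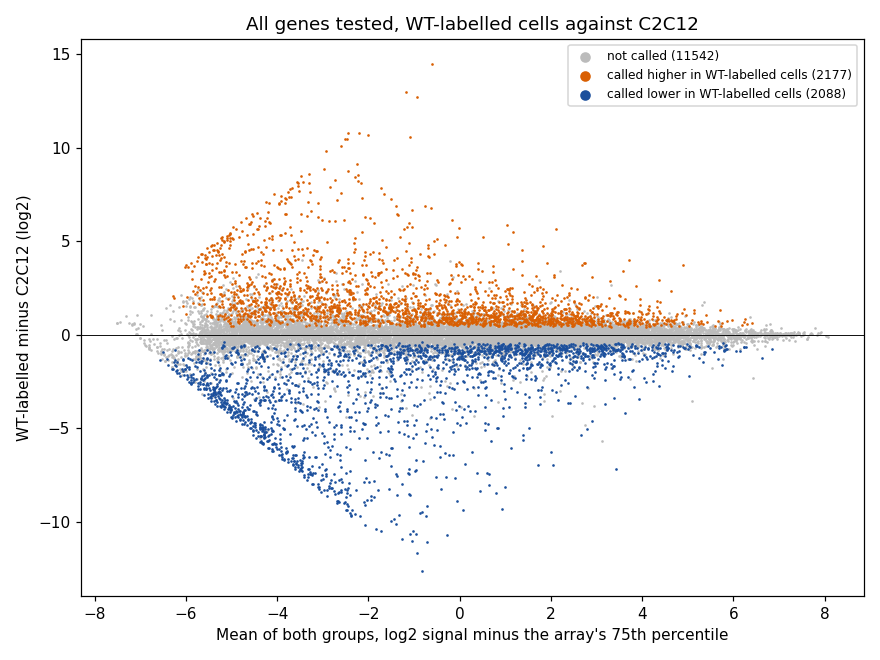
Each point is 1 of 15807 genes. The mean of the WT-labelled and C2C12 group means of log2 signal runs across, and the difference, WT-labelled minus C2C12, up. Signals are in log2 units relative to each array's 75th percentile. The 2177 genes called higher and the 2088 called lower are coloured, and the 11542 genes not called lie around 0.

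The arrays had 75th percentiles of 962.4 to 1145.0 signal units and 49.4 to 62.0% of probes well above background, and in these bulk samples fewer cells of a type and less RNA per cell cannot be told apart. The WT-labelled ventricle and aorta samples correlated at 0.992 over the tested genes and were at least 2-fold apart for 850 of them. The atrium sample correlated with those at 0.958 and 0.960, with 2765 and 2671 genes at least 2-fold apart. The same 5 samples also differ by slide and array position, and the order of positions on a slide follows the heart regions, so region and position cannot be told apart. Every C2C12 array lay at position 4, and the WT-labelled arrays at positions 1, 2 and 3. Group and position therefore cannot be told apart either, within slide 2 or with the slide as a block.

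The labelled cell types were checked against defining markers, whose scaled signals (multiples of the 75th percentile) were summed within each sample. Of 6 skeletal myoblast markers, all 6 were well above background on every C2C12 array and 0 on every WT-labelled array. Their summed signal was 70.5 to 152 in C2C12 and 0.0999 to 0.146 in the WT-labelled samples. All 4 fibroblast and stromal markers (Pdgfra, Col1a1, Dcn, Thy1) were on every WT-labelled array, with sums of 78.8 to 136 against 76.2 to 80.6 in C2C12. Of 5 pericyte markers, Pdgfrb and Cspg4 were on every WT-labelled array and Alpl and Rgs5 on none, and the sums were 8.03 to 10.8 against 44 to 45.3. None of 4 endothelial markers was on any WT-labelled array (sums 0.0374 to 0.0624), Csf1r alone of 4 blood markers was on all of them (sums 0.0759 to 0.177, against 0.0768 to 0.0792 in C2C12), and neither of 2 epithelial markers was detected there. Of 5 cardiomyocyte markers only Nppa was on every WT-labelled array, while Myh6 and Nkx2-5 were on none (sums 0.187 to 0.249). Of 3 smooth muscle markers, Acta2 and Cnn1 were on every array of both groups, and Myh11 was on no WT-labelled array. The sums were 13.2 to 95.9 in the WT-labelled and 196 to 226 in the C2C12 samples. The sums of the 4 epicardial markers were 9.03 to 99.1 in the WT-labelled samples and 3.6 to 3.75 in C2C12, and Msln made up most of them. Msln and Bnc1 were on every WT-labelled array, Wt1 on 1 and Upk3b on none. The WT-labelled cells therefore carried stromal markers and lacked those of skeletal myoblasts, endothelium and contracting cardiomyocytes.

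**Figure D2:**
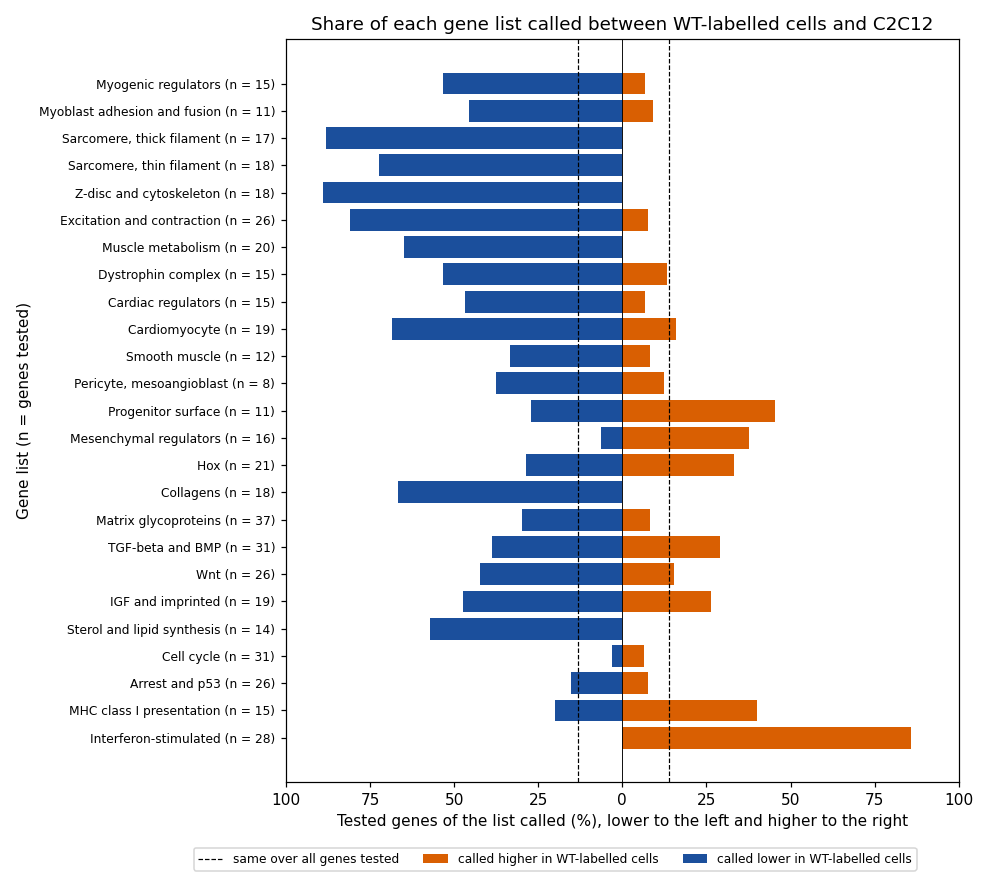
Percent of the tested genes of each list called higher (right) or lower (left) in WT-labelled cells than in C2C12, with the background shares of all 15807 genes, 13.8% higher and 13.2% lower, as dashed lines. The contractile and muscle lists lie far to the lower side and the interferon-stimulated genes far to the higher side.

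The 4 factors that commit cells to skeletal muscle, Myod1, Myf5, Myog and Myf6, were all lower in the WT-labelled cells. Myod1 read -4.80, -5.09 and -5.39 in the WT-labelled atrium, ventricle and aorta samples and 2.95 and 1.70 in C2C12, a difference of -7.42 (SE 0.43, adjusted p = 4.23e-05), and it was well above background on 1 of the 3 WT-labelled arrays. Myog, which drives terminal differentiation, read -6.78, -6.90 and -6.62 against 5.82 and 3.94, at least 881-fold lower (adjusted p = 0.000906). Myf5 read -6.82, -7.77 and -6.62 against -2.52 and -2.01, at least 6.23-fold lower (adjusted p = 0.000611), and Myf6, a late factor, was at least 1.44-fold lower (adjusted p = 0.0027). The groups did not overlap for any of these genes, as for 54.1% of all genes tested. The WT-labelled values lay near the floor of the arrays in all 3 heart regions. Of the cofactors, Vgll2, a muscle partner of TEAD factors, was at least 12.3-fold lower, and Eya4 differed by -4.43. The MEF2 factors, which act together with the myogenic factors, differed in sign: Mef2c was higher by 1.74 (adjusted p = 0.0159), Mef2a was lower (-1.16, adjusted p = 0.0207), and Mef2b (0.42) and Mef2d (-1.10) were not called. Pax3, an early muscle progenitor factor, did not pass the test (0.04, adjusted p = 0.935), and nor did Six4, Eya1 or Tcf12. In all, 1 of the 15 tested members was higher and 8 were lower, with a median difference of -1.16 (-0.79 with the slide as a block and within slide 2, -1.10 with genes below background at their bound). In the KO-labelled samples, compared with the same C2C12 samples, Myod1 differed by 0.33 and Myog by -3.03, and neither was called. With the slide as a block, the call ended for Mef2a (adjusted p = 0.136). Dropped singly, samples ended the call for Mef2c without the C2C12 2 sample (adjusted p = 0.11), and Mef2a without the ventricle, aorta or C2C12 1 sample (adjusted p 0.0584 to 0.133).

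The promoters of Myog and of Chrna1, the muscle acetylcholine receptor subunit, are shown because both genes are among the largest differences. They are the 250 bases before the start of each gene in RefSeq (GRCm38.p6), 5′ to 3′ on the gene's strand, at chr1:134289754-134290003 (+) and chr2:73580339-73580588 (-). Capitals mark matches on either strand to the E-box CAGCTG, which myogenic factors bind, and to CTANNNNTA, a loose form of the MEF2 box. Its middle bases, marked N, were left free, so a match need not be a site that MEF2 binds.
Myog: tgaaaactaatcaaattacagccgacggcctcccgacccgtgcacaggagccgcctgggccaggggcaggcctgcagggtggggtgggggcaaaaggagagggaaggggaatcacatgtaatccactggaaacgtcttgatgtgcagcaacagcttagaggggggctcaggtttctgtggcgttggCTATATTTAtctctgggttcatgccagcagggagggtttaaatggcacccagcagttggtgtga
Chrna1: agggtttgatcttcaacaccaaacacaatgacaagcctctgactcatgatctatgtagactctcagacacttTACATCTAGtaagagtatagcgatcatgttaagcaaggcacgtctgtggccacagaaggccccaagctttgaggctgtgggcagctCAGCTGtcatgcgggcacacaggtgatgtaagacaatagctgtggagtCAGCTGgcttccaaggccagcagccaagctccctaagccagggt
The Myog promoter held 1 MEF2 box, CTATATTTA, 64 to 56 bases before the start, and no E-box of these letters in this window. The Chrna1 promoter held E-boxes at 92 to 87 and 44 to 39 bases before the start, and 1 match to the loose MEF2 pattern at 178 to 170. Of all 32851 promoters of this length, 13.0% held the E-box and 19% the loose MEF2 pattern, counted 1 per transcript start. Over genes, 41 of the 53 sarcomere genes tested had a promoter sequence to search. Of these, 15 held the E-box (36.6%, against 14.7% of 27025 genes) and 21 the loose MEF2 pattern (51.2%, against 21.4%). The promoter of Cdh15, the muscle cadherin, held neither.

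**Figure D3:**
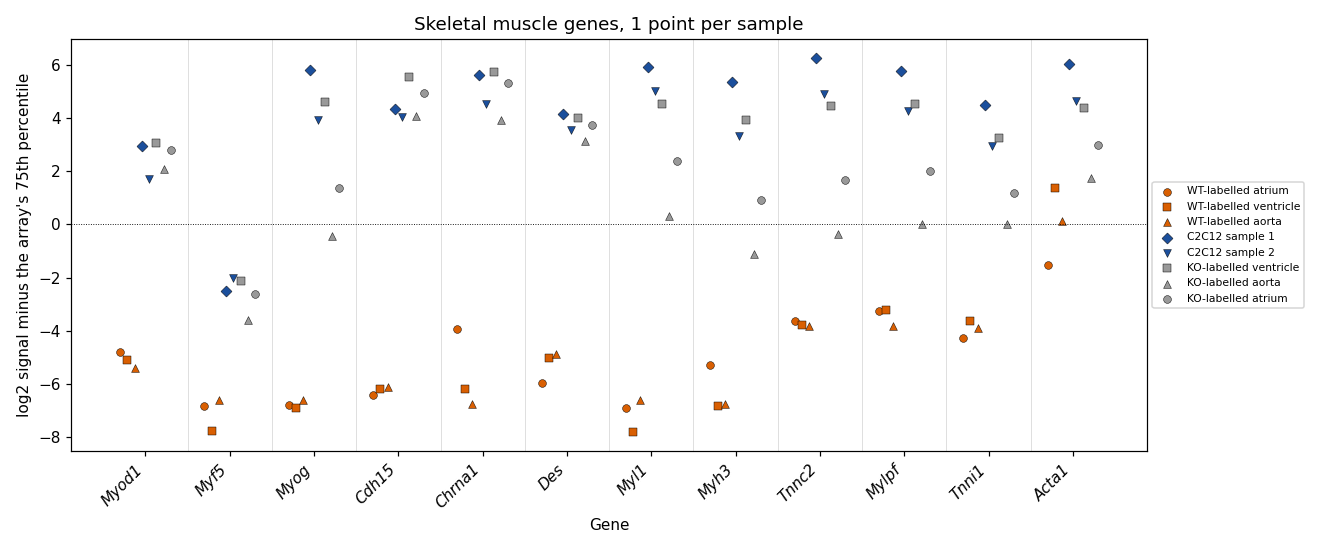
Log2 signal relative to each array's 75th percentile, 1 point per sample, for 12 muscle genes in 3 WT-labelled, 2 C2C12 and 3 KO-labelled samples. For every gene shown the WT-labelled points lie below both C2C12 points, and C2C12 1 lies above C2C12 2 for the contractile genes.

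Several genes that let myoblasts adhere and fuse were also lower. Cdh15 read -6.43, -6.20 and -6.13 in the WT-labelled and 4.36 and 4.05 in the C2C12 samples, at least 553-fold lower (adjusted p = 7.31e-06), with the 3 WT-labelled values close together. Jam2, a junctional adhesion molecule, read -4.19, -6.49 and -6.72 against 1.99 and 2.08, a difference of -7.83 (SE 0.69), and was on 1 WT-labelled array. Itga7, the laminin receptor of muscle, differed by -2.64 (SE 0.40), and the metalloprotease Adam12 was at least 5.95-fold lower. The fusogen Mymk differed by -4.23 (adjusted p = 0.0163), while N-cadherin, Cdh2, was higher by 1.55 (adjusted p = 0.0435). Ncam1 did not pass (-1.13, adjusted p = 0.0677). Of 11 tested members 1 was higher and 5 were lower, with a median difference of -1.13 (-1.08 with the slide as a block and within slide 2). The slide block ended the call for Mymk (adjusted p = 0.119) and Cdh2 (adjusted p = 0.111). The calls that ended when 1 sample was left out were Mymk without the aorta or C2C12 1 sample (adjusted p 0.0506 to 0.117), and Cdh2 without the ventricle, aorta, C2C12 1 or C2C12 2 sample (adjusted p 0.106 to 0.216).

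Most genes of the contractile apparatus were lower. Of 17 tested thick-filament genes 15 were lower and 0 higher, with a median difference of -7.37 (-6.72 with the slide as a block, -5.60 within slide 2, -6.40 with genes below background at their bound). Of the 17 genes, 4 were tested only by way of the C2C12 arrays and 1 only by way of the WT-labelled arrays. Of the other 12, 11 were lower and 0 higher, with a median difference of -7.85. The embryonic myosin heavy chain Myh3 read -5.28, -6.82 and -6.74 in the WT-labelled and 5.37 and 3.32 in the C2C12 samples and was at least 610.5-fold lower (adjusted p = 0.00178). Myl1, the fast essential light chain, read -6.92, -7.83 and -6.60 against 5.93 and 5.04, at least 1342-fold lower (adjusted p = 0.000261). Both genes were on every C2C12 array and on no WT-labelled array, with C2C12 1 above C2C12 2. Myl3, the slow essential light chain, was at least 335-fold lower by its brightest probe, the fast heavy chain Myh4 at least 116-fold, and Mylpf, the fast regulatory light chain, differed by -8.46 (SE 1.17). The other probe of Myl3 differed by 0.14 and was not called, and it stood for the gene with WT-labelled and C2C12 samples only. The members not called were the atrial light chain Myl7, which read -3.72, -5.15 and -4.69 against -6.46 and -7.42 and was on no C2C12 array, and the kinase Mylk2 (-1.86). Other settings moved by over 1.5 times the lower count of the thick-filament list, 15 (8 without the C2C12 1 sample).

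Thin-filament genes followed, with 13 of 18 lower, 0 higher and a median difference of -4.39 (-3.58 with the slide as a block and within slide 2, -3.39 with genes below background at their bound). Of the 18 genes, 2 were tested only by way of the C2C12 arrays, and 11 of the other 16 were lower, with a median difference of -3.54. The calcium sensor Tnnc2 of fast fibres read -3.62, -3.78 and -3.81 against 6.28 and 4.91, a difference of -9.33 (SE 1.23, adjusted p = 0.00174). Slow troponin T, Tnnt1, was at least 512-fold lower, fast troponin T, Tnnt3, at least 165-fold, and slow troponin I, Tnni1, differed by -7.65 (SE 0.90). Skeletal alpha-actin, Acta1, stayed detectable in all 3 WT-labelled samples, at -1.51, 1.36 and 0.12 against 6.03 and 4.64 (-5.35, adjusted p = 0.00816), and cardiac alpha-actin, Actc1, at 0.81, 3.53 and 2.31 against 5.80 and 5.48 (-3.42, adjusted p = 0.0135). Tropomyosins Tpm1 (-0.53) and Tpm3 (0.09), which non-muscle cells also use, were not called, nor were Tnni2 (-3.67), Nebl (2.01) and Tmod4 (-0.90). Of these calls, those of Acta1 (adjusted p = 0.0678) and Actc1 (adjusted p = 0.0866) ended with the slide as a block. With 1 sample left out, the call ended for Acta1 without the C2C12 1 sample (adjusted p = 0.0666), and Actc1 without the C2C12 1 or C2C12 2 sample (adjusted p 0.0653 to 0.0848). A change by over 1.5 times was seen in the lower count of the thin-filament list, 13 (8 without the C2C12 1 sample, 7 with the slide as a block, 8 within slide 2).

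At the Z-disc and in the muscle cytoskeleton, 16 of 18 genes were lower and 0 higher, with a median difference of -4.58 (-3.96 with the slide as a block, -3.85 within slide 2, -4.14 with genes below background at their bound). Of the 18 genes, 4 were tested only by way of the C2C12 arrays, and 13 of the other 14 were lower, with a median difference of -4.81. Desmin (Des), the intermediate filament of muscle, read -5.98, -5.04 and -4.89 against 4.17 and 3.54 (-9.16, SE 0.41, adjusted p = 1.53e-05) and was on 1 WT-labelled array. Pdlim3, a Z-disc adaptor, was at least 90.7-fold lower, Smpx at least 53.5-fold, Csrp3, the muscle LIM protein, at least 32-fold, and Actn2, alpha-actinin of the Z-disc, at least 2.47-fold. The filamin Flnc (1.19) and the calsarcin Myoz1 (-0.98) were not called. The KO-labelled medians against the same C2C12 samples were -3.21, -2.26 and -2.06 for the thick, thin and Z-disc genes. Blocking on slide ended the call for Actn2 (adjusted p = 0.0925). Omitting 1 sample ended the call of Actn2 without the C2C12 1 sample (adjusted p = 0.0909). Also dependent on the setting was the lower count of the Z-disc list, 16 (10 without the C2C12 1 sample, 9 with the slide as a block).

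Excitation and contraction coupling, by which a nerve signal releases calcium inside the fibre, held mostly genes that were lower. Of 26 tested genes 21 were lower and 2 higher, with a median difference of -4.97 (-4.54 with the slide as a block, -4.01 within slide 2, -3.93 with genes below background at their bound). Chrna1 read -3.95, -6.20 and -6.77 against 5.61 and 4.55, a difference of -10.72 (SE 0.90, adjusted p = 0.000225), and was on 1 WT-labelled array, that of the atrium. The fetal receptor subunit Chrng was at least 243-fold lower, the receptor-clustering protein Rapsn at least 67-fold and the calcium channel subunit Cacng1 at least 118-fold. Junctophilin Jph2, which ties the cell membrane to the calcium store, read -6.98, -5.31 and -6.76 against 2.70 and 2.24 (-8.82). Clcn1, the muscle chloride channel, went the other way, at -1.62, -2.05 and -1.97 against -4.45 and -4.32 (2.51, adjusted p = 0.000697). The calcium release channel Ryr1 was called higher by its brightest probe (0.74, adjusted p = 0.0311), and 2 of its other probes were called lower, so the array gives it no single direction. Only some arrays of the dimmer group had a signal well above background for Jph2 (1 of 3 WT-labelled arrays). The threshold was missed with the slide as a block by Ryr1 (adjusted p = 0.201). The call did not hold for Ryr1 without the ventricle or C2C12 1 sample (adjusted p 0.0804 to 0.196).

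Metabolic and stress genes of muscle gave 13 lower and 0 higher of 20 tested, with a median difference of -3.81 (-3.06 with the slide as a block and within slide 2, -2.30 with genes below background at their bound). Of the 20 genes, 5 were tested only by way of the C2C12 arrays, and 9 of the other 15 were lower, with a median difference of -2.58. Myoglobin (Mb) read -6.76, -6.42 and -6.55 against 3.23 and 1.51, at least 155-fold lower, and Cav3, the muscle caveolin, at least 155-fold. Muscle creatine kinase, Ckm, was at least 28.9-fold lower (adjusted p = 0.019), Apobec2 at least 101-fold and the muscle cytochrome oxidase subunit Cox8b at least 15.9-fold. Enzymes that other tissues share, glycogen synthase Gys1 (-0.02) and phosphofructokinase Pfkm (-0.53), were not called. Under the slide block the call was lost for Ckm (adjusted p = 0.127) and Cox8b (adjusted p = 0.0879). When samples were left out in turn, the call ended for Ckm without the ventricle, C2C12 1 or C2C12 2 sample (adjusted p 0.0544 to 0.125), and Cox8b without the C2C12 1 or C2C12 2 sample (adjusted p 0.0539 to 0.0863). By over 1.5 times the settings moved the lower count of the muscle metabolism list, 13 (8 without the C2C12 1 sample, 8 with the slide as a block).

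In the dystrophin complex, which anchors the fibre to its surrounding matrix, 8 of 15 tested members were lower and 2 higher, with a median difference of -1.01 (-0.86 with the slide as a block and within slide 2). The sarcoglycans divided. Sgca was at least 41.3-fold lower, and Sgce read -5.69, -7.80 and -5.89 against 3.64 and 3.69 and was at least 380.4-fold lower. Sgcd was higher, at -1.15, -0.61 and -0.66 against -2.29 and -2.09 (1.39, adjusted p = 0.00231). Sgcb read 2.07, 2.20 and 1.82 against 2.41 and 2.82 and did not pass (-0.58, adjusted p = 0.118). The syntrophin Sntb2 was higher by 1.03, and the laminin chain Lama2, the ligand of the complex, was at least 23-fold lower. Dmd itself did not reach the brightness needed for the test. With the slide as a block, the call ended for Sntb2 (adjusted p = 0.0793). Dropped singly, samples ended the call for Sntb2 without the C2C12 1 or C2C12 2 sample (adjusted p 0.0668 to 0.077). The setting also mattered for the lower count of the dystrophin complex list, 8 (5 without the C2C12 1 or C2C12 2 sample, 5 with the slide as a block and within slide 2).

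Cardiac genes were not higher as a group. Of 15 cardiac transcription factors tested, 1 (Mef2c) was higher and 7 were lower, with a median difference of -1.45 (-1.71 with the slide as a block and within slide 2). The core cardiac factor Nkx2-5 was on no WT-labelled array and at least 5.06-fold lower than in C2C12, and Tbx1, a pharyngeal and second heart field factor, read -6.95, -7.88 and -6.74 against 2.52 and 2.33, at least 161-fold lower. Hey1 differed by -4.39, and Irx3 was at least 2.94-fold lower. Gata4 was not called (-0.54), and it was on 1 WT-labelled and 3 C2C12 arrays. Among 19 cardiomyocyte genes 3 were higher and 13 lower, with a median difference of -3.42 (-3.26 with the slide as a block, -1.20 within slide 2, -3.36 with genes below background at their bound), and many of these are shared with the embryonic skeletal programme. The atrial natriuretic peptide Nppa was higher, at -3.20, -3.14 and -3.47 against -5.35 and -5.14 (1.98), as were its relative Nppb (1.45, adjusted p = 0.0455) and the connexin Gja5 (1.00, adjusted p = 0.0102; its 4 probes ran from -1.77 to 1.56, with 2 called). Calsequestrin Casq2 differed by -7.88, the beta myosin heavy chain Myh7 by -7.37, and the alpha chain Myh6 was at least 5.09-fold lower. Part of the dimmer group's arrays detected Nppa (1 of 3 C2C12 arrays), Casq2 (1 of 3 WT-labelled arrays) and Myh7 (2 of 3 WT-labelled arrays). The slide block ended the call for Nppb (adjusted p = 0.239), Myh7 (adjusted p = 0.0551) and Myh6 (adjusted p = 0.119). The calls that ended when 1 sample was left out were Nppb without any 1 sample (adjusted p 0.0513 to 0.236), Gja5 without the C2C12 2 sample (adjusted p = 0.0748), Myh7 without the C2C12 1 sample (adjusted p = 0.0539), and Myh6 without the ventricle, C2C12 1 or C2C12 2 sample (adjusted p 0.057 to 0.117). Settings further changed the higher count of the cardiomyocyte list, 3 (1 within slide 2) and the lower count of the cardiomyocyte list, 13 (7 without the C2C12 1 sample, 8 without the C2C12 2 sample, 7 with the slide as a block, 6 within slide 2).

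Surface proteins used to sort progenitor and stromal cells moved in both directions, with 5 of 11 higher, 3 lower and a median difference of 0.78 (0.85 with the slide as a block and within slide 2). Thy1 (CD90), a stromal surface protein, read 4.72, 6.06 and 5.50 against -7.65 and -6.97, at least 1993-fold higher (adjusted p = 3.32e-05). Cd34 read 5.32, 6.23 and 5.85 against 2.97 and 3.96, a difference of 2.34 (SE 0.37), and the hyaluronan receptor Cd44 differed by 1.46 (SE 0.24). Thy1 therefore split the groups outright, whereas Cd34 and Cd44 were detected in both. Smaller differences were called for Vcam1 (1.39) and the transporter Abcg2 (1.19), and Sca-1, Ly6a, did not pass (-1.73, adjusted p = 0.0924). Lower were Cd24a (at least 59.5-fold), the ecto-nucleotidase Nt5e (CD73, at least 2.89-fold) and the tetraspanin Cd9 (-1.49). Of these calls, those of Vcam1 (adjusted p = 0.107) and Abcg2 (adjusted p = 0.0545) ended with the slide as a block. With 1 sample left out, the call ended for Vcam1 without the C2C12 1 or C2C12 2 sample (adjusted p 0.0507 to 0.105), and Abcg2 without the C2C12 1 sample (adjusted p = 0.0528). Other settings moved by over 1.5 times the higher count of the surface protein list, 5 (3 without the C2C12 1 sample, 3 with the slide as a block, 1 within slide 2).

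The 2 PDGF receptors, which mark stromal cells and pericytes, went opposite ways. Pdgfra read 1.82, 2.42 and 1.91 against -0.97 and -0.54 (2.80, SE 0.44, adjusted p = 0.00362), and Pdgfrb read 2.14, 2.94 and 2.26 against 5.25 and 5.17 (-2.77, SE 0.26, adjusted p = 0.000391). The aminopeptidase Anpep (CD13) differed by -6.67 and angiopoietin Angpt1 by -3.58, and Cspg4 (NG2) was not called (-0.49). Of 8 pericyte and mesoangioblast genes tested, 1 was higher and 3 lower, with a median difference of -1.49 (-1.56 with the slide as a block and within slide 2). Smooth muscle genes gave 1 higher and 4 lower of 12, with a median difference of -1.07 (-1.15 with the slide as a block, -1.09 within slide 2). Of the 12 genes, 1 was tested only by way of the WT-labelled arrays, and of the other 11, 0 were higher and 4 lower. Calponin Cnn1 differed by -6.05, Lmod1 by -6.27, Synpo2 by -5.21 and the enteric actin Actg2 by -2.33, and the integrin Itga8 was at least 8.2-fold higher. Smooth muscle actin Acta2 (-2.33) and Tagln (-1.30) were not called, and Acta2 read 3.71, 6.57 and 5.50 in the 3 WT-labelled samples, with the atrium below the other two. Detection in the dimmer group was partial for Anpep and Lmod1 (1 of 3 WT-labelled arrays).

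Genes of other cell types were mostly below detection, so few could be tested. Of 18 endothelial genes 6 were tested, of which 3 were higher and 1 lower, with a median difference of 1.04 (0.93 with the slide as a block and within slide 2). The ETS factor Fli1 was at least 44.2-fold and Erg at least 5-fold higher, while the receptor Flt1 differed by -5.41. Pecam1, Cdh5 and Kdr, which define endothelium, were not well above background on any WT-labelled array. Lyz2, the lysozyme of macrophages and other myeloid cells, read -0.03, 1.00 and 0.62 against -7.66 and -6.54, at least 66.8-fold higher, and was the 1 blood gene called of 6 tested, beside Ptprc, the pan-leukocyte marker, which was too dim to test. That is 16.7% higher, against 13.8% of all genes. Of the 6 blood genes, 1 was tested only by way of the WT-labelled arrays, and of the other 5, 0 were higher and 0 lower. Among 8 epicardial and mesothelial genes 3 were higher and 1 lower, with a median difference of 1.86 (1.85 with the slide as a block and within slide 2). Bnc1 (basonuclin) was at least 93.5-fold higher, mesothelin (Msln) read 3.08, 6.57 and 6.25 against 1.84 and 1.90 (3.43, adjusted p = 0.0494), and Krt19 was at least 3.41-fold lower. Tbx18, a factor of epicardium and pericytes, was not called (0.02). In the neural and Schwann list (7 tested, 1 higher, 1 lower, a median difference of -0.14 (-0.23 with the slide as a block, -0.17 within slide 2)) nestin (Nes), an intermediate filament of progenitors and of developing muscle, read -2.96, -3.06 and -3.26 against 5.18 and 4.93 (-8.15, SE 0.29, adjusted p = 6.82e-06). Of the 7 genes of that list, 1 was tested only by way of the WT-labelled arrays, and of the other 6, 0 were higher and 1 lower. The part of these cell types in the results was not tested. In the dimmer group, detection was incomplete for Flt1 (2 of 3 WT-labelled arrays). Blocking on slide ended the call for Msln (adjusted p = 0.184). Omitting 1 sample ended the call of Msln without the ventricle, aorta, C2C12 1 or C2C12 2 sample (adjusted p 0.117 to 0.181). A change by over 1.5 times was seen in the higher count of the endothelial list, 3 (1 without the atrium or ventricle sample, 0 without the aorta sample, 1 of 3 without the genes that needed 1 group to be tested) and the higher count of the epicardial list, 3 (1 without the ventricle, aorta or C2C12 1 sample, 1 with the slide as a block and within slide 2).

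Transcription factors of connective tissue were among the genes higher in the WT-labelled cells. Of 16 tested 6 were higher and 1 lower, with a median difference of 0.24 (0.49 with the slide as a block and within slide 2). Twist1, which holds back muscle differentiation, read 1.80, 1.77 and 1.77 against -1.17 and -1.27 (3.0, SE 0.16, adjusted p = 2.68e-05). Osr1, a factor of fibrogenic connective tissue progenitors, read 1.07, 1.99 and 1.75 against -2.72 and -2.70 (4.31, SE 0.34), and its relative Osr2 was at least 7.45-fold higher. The orphan receptors Nr2f1 and Nr2f2 differed by 1.95 and 1.97, Prrx1 by 1.05, and the limb factor En1 was at least 2.94-fold lower. The cartilage factors Sox9 (2.42) and Sox5 (at least 4.09-fold) were higher, Runx1 was lower (-1.85), and the bone factor Runx2 was not called (0.12). Over that list 2 of 9 were higher and 3 lower, with a median difference of -0.07 (-0.18 with the slide as a block and within slide 2). The adipocyte factor Pparg read -3.16, -3.12 and -3.47 against 1.08 and 1.56 (-4.58), Cebpd was higher (3.1), and the adipocyte list gave 1 higher and 2 lower of 8, with a median difference of 0.18 (-0.05 with the slide as a block and within slide 2). The threshold was missed with the slide as a block by Prrx1 (adjusted p = 0.0909) and Cebpd (adjusted p = 0.0669). The call did not hold for Prrx1 and Cebpd without the C2C12 1 or C2C12 2 sample (adjusted p 0.0611 to 0.0883). Also dependent on the setting was the lower count of the mesenchymal factor list, 1 (3 without the atrium sample) and the lower count of the cartilage and bone list, 3 (1 without the C2C12 2 sample, 0 within slide 2).

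The Hox genes, which record a cell's position along the body axis, separated by paralog number. Of 10 tested genes of groups 1 to 5, 6 were higher and 0 lower, with a median difference of 2.35. None of the 4 tested of groups 6 to 8 was called (median 0.49), and of 7 tested of groups 9 to 13, 6 were lower and 1 higher (median -4.61). Hoxa5 read -0.56, 0.77 and 0.19 against -3.45 and -3.25 (3.49), Hoxa4 differed by 3.14 and Hoxa2 by 5.17, and Hoxb2 and Hoxd4 were at least 41.2-fold and 11-fold higher. At the other end Hoxa11 read -6.85, -7.78 and -6.66 against 1.82 and 1.84, at least 106-fold lower, Hoxc10 was at least 36.2-fold lower, and Hoxa9 (-3.08), Hoxc9 (-4.71), Hoxa10 (-4.61) and Hoxc13 (-1.09) were lower. Hoxb9 was the exception, at 1.14, 0.09 and 0.30 against -7.63 and -7.55, at least 66-fold higher. Over the whole list 7 of 21 were higher and 6 lower, with a median difference of 0.17 (0.12 with the slide as a block and within slide 2). The division by paralog number was made after the values were seen. Of the 21 genes, 4 were tested only by way of the WT-labelled arrays and 1 only by way of the C2C12 arrays. For called genes among these the direction was largely fixed by that, which limits the division. Without them 4 of 17 were higher and 6 lower. Only some arrays of the dimmer group had a signal well above background for Hoxa2 (2 of 3 C2C12 arrays) and Hoxa10 (2 of 3 WT-labelled arrays). Under the slide block the call was lost for Hoxa10 (adjusted p = 0.139). When samples were left out in turn, the call ended for Hoxa10 without the C2C12 1 or C2C12 2 sample (adjusted p 0.136 to 0.152). By over 1.5 times the settings moved the higher count of the Hox list, 7 (4 without the ventricle sample, 4 of 17 without the genes that needed 1 group to be tested).

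**Figure D4:**
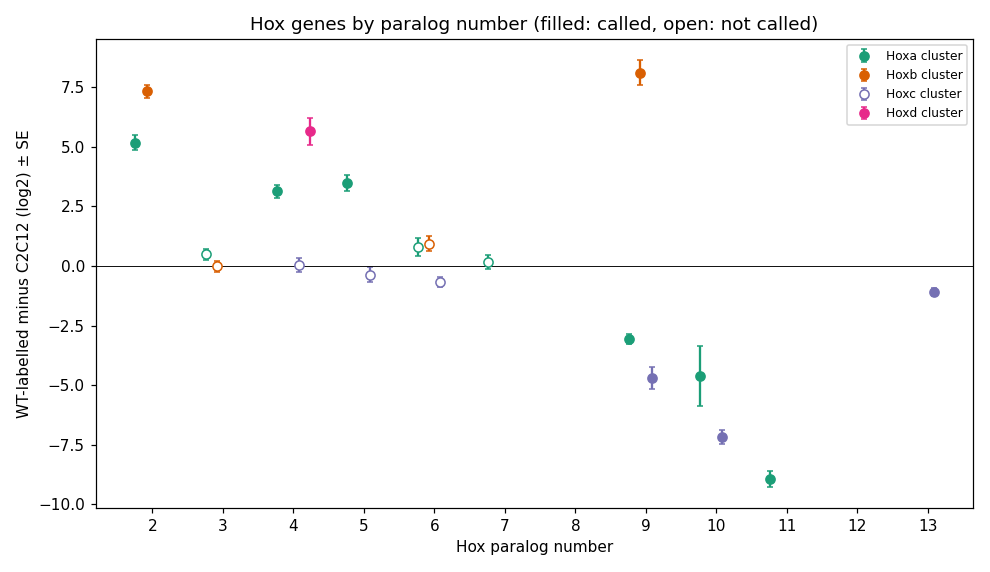
Difference in log2 signal, WT-labelled minus C2C12, with its SE, for the tested Hox genes of paralog groups 2 to 13 (20 of 21) against paralog group number; filled points were called. Called genes of groups 2 to 5 lie above 0, and those of groups 9 to 13 below 0 except Hoxb9.

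Many structural collagens were lower. Of 18 tested 12 were lower and 0 higher, with a median difference of -1.39 (-1.43 with the slide as a block and within slide 2). Type I collagen, Col1a1, read 5.57, 5.52 and 5.21 against 6.17 and 6.27, a small difference of -0.79 (SE 0.15, adjusted p = 0.00909). The larger differences were in Col5a3 (-6.93, SE 0.30), Col14a1 (-3.73), Col18a1 (-3.62) and Col6a2 (-2.52). Of the 2 probes of Col5a3 only 1 was called, and the other differed by -0.66. The basement membrane chain Col4a1 read 2.20, 1.95 and 1.93 against 2.07 and 1.76 and was not called, and 5 of the 18 differences were above 0. Part of the dimmer group's arrays detected Col14a1 (1 of 3 WT-labelled arrays). With the slide as a block, the call ended for Col14a1 (adjusted p = 0.0569) and Col6a2 (adjusted p = 0.163). Dropped singly, samples ended the call for Col1a1 without the C2C12 2 sample (adjusted p = 0.069), Col14a1 without the C2C12 1 or C2C12 2 sample (adjusted p 0.0556 to 0.0821), and Col6a2 without the aorta, C2C12 1 or C2C12 2 sample (adjusted p 0.0575 to 0.161). The setting also mattered for the lower count of the collagen list, 12 (6 without the C2C12 1 sample, 3 without the C2C12 2 sample, 6 with the slide as a block, 2 within slide 2).

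Among 37 other matrix proteins 3 were higher and 11 lower, with a median difference of -0.50 (-1.05 with the slide as a block and within slide 2). The laminin alpha chains differed in opposite directions: Lama4 read 0.43, 0.99 and 1.16 against -2.79 and -2.68 (3.60, SE 0.24, adjusted p = 7.67e-05), whereas Lama5 read -5.26, -5.94 and -6.54 against 2.03 and 1.86, at least 116-fold lower. Asporin (Aspn) was at least 23.4-fold lower, the crosslinking enzyme Loxl2 differed by -6.37 and thrombospondin Thbs2 by -4.76, while Fn1 (-0.02) and Dcn (1.24) were not called. Of 20 matrix proteases and inhibitors 3 were higher and 3 lower (15% each, against 13.8% and 13.2% of all genes). Their median difference was 0.04 (-0.06 with the slide as a block and within slide 2). Stromelysin Mmp3 was at least 104-fold higher and Mmp10 differed by 3.59, the procollagen peptidase Adamts2 read -6.79, -6.00 and -6.44 against 4.14 and 4.32, at least 563-fold lower, and Mmp2 (0.62) and Timp1 (0.55) were not called. Integrins gave 2 higher and 4 lower of 16 (12.5% and 25%, against 13.8% and 13.2% of all genes). Their median difference was -0.26 (-0.14 with the slide as a block, -0.12 within slide 2). Of the 16 integrins, 2 were tested only by way of the WT-labelled arrays and 1 only by way of the C2C12 arrays. Of the other 13, 0 were higher and 4 lower. The collagen receptor Itga1 was at least 4.9-fold higher, the collagen receptor Itga11 at least 224-fold lower and Itgb6 at least 8.31-fold lower, and the shared subunit Itgb1 was not called (-0.21). Detection in the dimmer group was partial for Loxl2 (1 of 3 WT-labelled arrays) and Mmp10 (1 of 3 C2C12 arrays). Settings further changed the higher count of the matrix protein list, 3 (7 without the atrium sample, 1 without the ventricle, aorta, C2C12 1 or C2C12 2 sample, 1 with the slide as a block), the lower count of the matrix protein list, 11 (7 within slide 2), the higher count of the protease list, 3 (1 within slide 2, 0 of 17 without the genes that needed 1 group to be tested), the lower count of the protease list, 3 (1 within slide 2) and the lower count of the integrin list, 4 (7 without the atrium sample, 2 without the C2C12 1 sample, 2 with the slide as a block and within slide 2).

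In TGF-beta and BMP signalling, genes were called in both directions. Of the ligands, Tgfb1 read -0.62, -1.48 and -1.06 against 0.91 and 0.66 (-1.84, SE 0.30), Tgfb2 differed by -4.29, Bmp4 by -4.82 and Gdf15 by -6.09, and the activin subunit Inhbb was at least 110.1-fold lower. Of the antagonists, Grem1 read 3.84, 3.23 and 3.72 against 0.80 and 0.25 (3.07, SE 0.27) and Nog differed by 1.68, whereas the follistatin-like Fstl3 was lower (-1.81). Bambi, a decoy receptor, was higher by 4.01, and Id4, an inhibitor of bHLH factors, read 2.67, 1.93 and 1.70 against -4.81 and -6.02 (7.51, SE 0.48). The BMP target genes Id1 (0.77), Id2 (0.30) and Id3 (-0.18) were not called. Over 31 tested genes 9 were higher and 12 lower, with a median difference of -0.18 (-0.10 with the slide as a block, -0.07 within slide 2). In the dimmer group, detection was incomplete for Tgfb2 and Bmp4 (2 of 3 WT-labelled arrays), Gdf15 (1 of 3 WT-labelled arrays), Nog (2 of 3 C2C12 arrays) and Id4 (1 of 3 C2C12 arrays). The calls that ended when 1 sample was left out were Nog without the C2C12 2 sample (adjusted p = 0.0818). Other settings moved by over 1.5 times the higher count of the TGF-beta and BMP list, 9 (4 without the C2C12 2 sample) and the lower count of the TGF-beta and BMP list, 12 (4 within slide 2).

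Dlk1, an imprinted membrane protein related to Notch ligands, had the largest lower bound of any gene. It read 6.47, 6.75 and 6.67 in the WT-labelled and -8.11 and -7.56 in the C2C12 samples, at least 4587-fold higher (adjusted p = 4.23e-05), and was on no C2C12 array. The Notch ligands Jag2 and Dll1 were at least 26.5-fold and 17.5-fold lower, and the target gene Heyl at least 53.6-fold. Receptor Notch4 was higher (1.76), and Notch1 (0.03), Jag1 (0.63) and Hes1 (-0.37) were not called. Of 15 tested 3 were higher and 5 lower, with a median difference of -0.37 (-0.52 with the slide as a block and within slide 2). A change by over 1.5 times was seen in the higher count of the Notch list, 3 (1 within slide 2).

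Wnt pathway genes gave 4 higher and 11 lower of 26, with a median difference of -0.85 (-0.84 with the slide as a block and within slide 2). The secreted antagonists divided, with Sfrp1 at -0.25, -0.32 and -0.46 against -7.54 and -7.46, at least 36.5-fold higher, and Sfrp2 at -6.81, -7.17 and -6.63 against 0.36 and 0.66, at least 42.6-fold lower. Wnt5a, a ligand that mostly signals without beta-catenin, was at least 4.76-fold higher, and Wnt4 was at least 5.18-fold lower. The receptor Fzd8 (1.81) and the inhibitor Apcdd1 (1.68) were higher. The nuclear partners of beta-catenin, Lef1 and Tcf7, were at least 70.6-fold and 28.5-fold lower, Nkd2 was at least 4.38-fold lower, and the target gene Axin2 was not called (1.68). Also dependent on the setting was the higher count of the Wnt list, 4 (2 without the ventricle or aorta sample, 2 of 20 without the genes that needed 1 group to be tested) and the lower count of the Wnt list, 11 (6 within slide 2).

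Insulin-like growth factor genes and imprinted genes gave 5 higher and 9 lower of 19, with a median difference of -1.14 (-1.19 with the slide as a block and within slide 2). Igf2, the fetal growth factor, read 0.47, -6.49 and -3.93 against 5.04 and 3.12 (-7.40, SE 2.03, adjusted p = 0.0346), and the spread between the WT-labelled samples was nearly as wide as the difference. Its imprinted neighbour H19 read -2.36, -4.11 and -3.66 against 4.83 and 4.47 (-8.03, SE 0.85, adjusted p = 0.000668). The binding proteins Igfbp5 and Igfbp2 were at least 339.6-fold and 177-fold lower, and Igfbp4 was higher by 3.67 (SE 0.63). Igf1 (2.41) and its receptor Igf1r (1.35) were higher. Sfmbt2 was at least 6.24-fold higher, and Cdkn1c, an imprinted cell cycle inhibitor, at least 8.37-fold lower. Other growth factors gave 7 higher and 4 lower of 29, with a median difference of -0.04 (-0.17 with the slide as a block, -0.10 within slide 2). Fgf10 was at least 3.82-fold higher, its receptor Fgfr2 differed by 2.37 and Ereg by 2.44, the platelet-derived factors Pdgfb and Pdgfd were at least 6.33-fold and 5.11-fold lower, and Hgf (-1.35) and Fgf2 (-0.14) were not called. Only some arrays of the dimmer group had a signal well above background for Igf2 (2 of 3 WT-labelled arrays). The slide block ended the call for Igf2 (adjusted p = 0.182) and Igf1 (adjusted p = 0.185). With 1 sample left out, the call ended for Igf2 without the ventricle, aorta, C2C12 1 or C2C12 2 sample (adjusted p 0.0706 to 0.18), Igf1 without the ventricle, aorta or C2C12 1 sample (adjusted p 0.0659 to 0.182), and Igf1r and Fgfr2 without the C2C12 2 sample (adjusted p 0.0604 to 0.0848). By over 1.5 times the settings moved the higher count of the IGF and imprinted list, 5 (3 without the ventricle or aorta sample, 1 within slide 2, 3 of 17 without the genes that needed 1 group to be tested), the higher count of the growth factor list, 7 (4 without the C2C12 1 sample, 4 with the slide as a block, 3 within slide 2) and the lower count of the growth factor list, 4 (7 without the atrium sample, 1 within slide 2).

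Most of the interferon-stimulated genes tested were higher. Cells that sense interferon switch on these antiviral genes together through factors that include STAT2 and IRF9. Of 28 tested 24 were higher and 0 lower, with a median difference of 3.67 (3.67 with the slide as a block and within slide 2, 3.27 with genes below background at their bound), against 13.8% higher and a median of 0.03 over all genes. The higher count was 18 with the slide as a block. Of the 28 genes, 9 were tested only by way of the WT-labelled arrays, and 15 of the other 19 were higher, with a median difference of 2.92. Mx2, an antiviral GTPase, read 2.45, 1.47 and 3.03 against -6.32 and -7.29, at least 222-fold higher (adjusted p = 3.43e-05). Usp18, which dampens the response, was at least 127-fold higher, and the RNA sensor Oas1a at least 78.6-fold. Ifit1, which binds viral RNA, read 0.84, 0.65 and 1.26 against -5.02 and -7.57 (7.21, SE 0.82, adjusted p = 0.000897), and Rsad2 (viperin) was at least 13.5-fold higher. The ubiquitin-like protein Isg15 read 3.91, 0.59 and 2.13 against -1.05 and -1.39 (3.43, adjusted p = 0.0453), with the atrium highest and the ventricle lowest. Of the factors that carry the signal, Stat2 differed by 1.52 and Irf9 by 2.92. The 4 members not called were Irf1 (-0.21), Ifih1 (2.74), Irgm1 (0.79) and Ifi35 (0.65). The median of the list was 0.02 in the KO-labelled samples against the same C2C12 samples. Part of the dimmer group's arrays detected Ifit1 (2 of 3 C2C12 arrays). Of these calls, those of Isg15 (adjusted p = 0.153) and Stat2 (adjusted p = 0.168) ended with the slide as a block. Omitting 1 sample ended the call of Isg15 without the atrium, aorta, C2C12 1 or C2C12 2 sample (adjusted p 0.0613 to 0.187), and Stat2 without the ventricle, aorta, C2C12 1 or C2C12 2 sample (adjusted p 0.0751 to 0.166). The setting also mattered for the higher count of the interferon list, 24 (14 without the aorta sample, 10 within slide 2, 15 of 19 without the genes that needed 1 group to be tested).

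**Figure D5:**
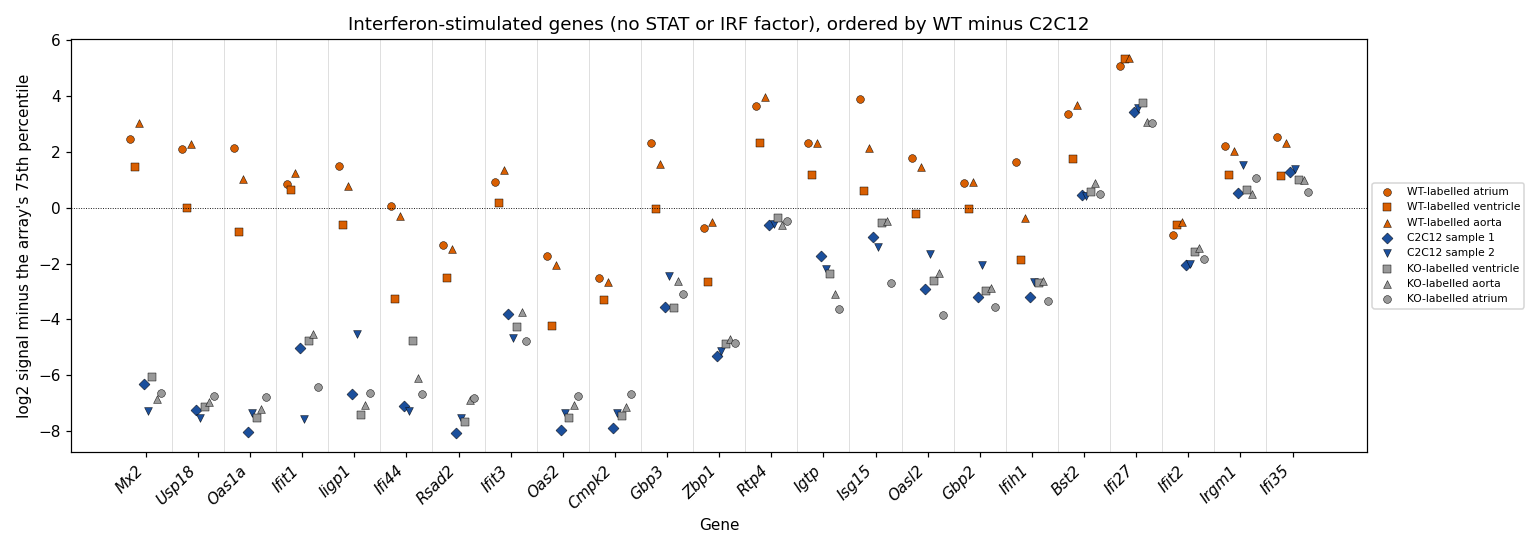
Log2 signal relative to each array's 75th percentile, 1 point per sample, for 23 of the 28 tested interferon-stimulated genes (those of the STAT and IRF factors are left out) in order of difference, in 3 WT-labelled, 2 C2C12 and 3 KO-labelled samples. For most genes the WT-labelled points lie above those of the C2C12 and KO-labelled samples, which overlap each other.

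The promoters of Ifit1 and Rsad2 are shown because interferon-stimulated genes are known to carry the ISRE, the element that the interferon-activated factors bind. This search was added after the values were seen. They are again the 250 bases before the gene start in RefSeq (GRCm38.p6), at chr19:34640639-34640888 (+) and chr12:26456453-26456702 (-), with capitals marking matches on either strand to GAAA, any 2 bases and GAAA.
Ifit1: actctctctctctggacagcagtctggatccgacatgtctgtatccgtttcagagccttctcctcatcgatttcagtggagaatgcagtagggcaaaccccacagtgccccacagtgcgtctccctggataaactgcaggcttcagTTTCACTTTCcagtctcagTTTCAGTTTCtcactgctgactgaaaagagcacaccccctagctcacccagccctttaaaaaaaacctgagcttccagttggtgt
Rsad2: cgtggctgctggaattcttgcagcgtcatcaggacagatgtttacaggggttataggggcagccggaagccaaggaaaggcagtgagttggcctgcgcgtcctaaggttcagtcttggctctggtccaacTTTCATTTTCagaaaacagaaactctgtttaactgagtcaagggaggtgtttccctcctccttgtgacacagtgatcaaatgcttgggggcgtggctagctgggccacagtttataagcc
Ifit1 held the element at 104 to 95 and at 85 to 76 bases before the start, and Rsad2 at 120 to 111. Of the 28 genes 20 had a promoter in the table, and 11 of these held the element (55.0%), against 3.46% of 27025 genes and 2.98% of all 32851 promoters of this length. None of the 41 sarcomere genes with a promoter held it.

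Genes of antigen presentation and of chemokine signalling lay on the same side in part. The class I heavy chain H2-K1 read 6.15, 5.28 and 5.72 against 1.05 and 2.39 (4.0, SE 0.42), the peptide transporter Tap1 differed by 4.13, the immunoproteasome subunit Psmb9 by 4.23 and the light chain B2m by 1.16. Psmb8 went the other way (at least 4.19-fold lower), and H2-D1 was called lower (-1.18, adjusted p = 0.0346), but it differed by 1.03 with WT-labelled and C2C12 samples only and by 0.76 within slide 2. The probes of H2-K1 ran from -1.03 to 4.39, with 2 of 4 called, and those of H2-D1 from -1.18 to 1.03. Class I genes are close copies that differ between strains, so their probes may not read each gene alike. Of 15 tested 6 were higher and 3 lower, with a median difference of 0.36 (0.23 with the slide as a block, 0.76 within slide 2). Among chemokines and cytokines (20 tested, 5 higher, 3 lower, a median difference of 0.49 (0.46 with the slide as a block and within slide 2)), Cxcl10, which interferon induces, read 4.19, 1.44 and 2.65 against -2.76 and -5.25 (6.77, SE 0.94), Ccl5 differed by 5.47, Il11 by 3.81 and Il6 by 2.16. The receptor Il1rl1 read 2.64, 6.18 and 5.98 against -0.61 and -0.80 (5.64), Cxcl5 and the receptor Cxcr4 were at least 39.1-fold and 12-fold lower, and Cxcl12 was not called (0.30). Complement gave 4 higher and 2 lower of 9, with a median difference of 1.09 (0.91 with the slide as a block and within slide 2), and C3, the central component, read -0.72, 2.04 and 3.85 against -3.79 and -4.31 (5.78) and clusterin (Clu) -2.82, 0.46 and 1.55 against -5.96 and -7.43 (6.43). Detection in the dimmer group was partial for Tap1 and Clu (1 of 3 C2C12 arrays) and Psmb9, Cxcl10 and Il6 (2 of 3 C2C12 arrays). Blocking on slide ended the call for H2-D1 (adjusted p = 0.0777), Il1rl1 (adjusted p = 0.0519) and C3 (adjusted p = 0.0517). The call did not hold for H2-D1 without the ventricle, aorta, C2C12 1 or C2C12 2 sample (adjusted p 0.0759 to 0.199), Il1rl1 and C3 without the C2C12 1 or C2C12 2 sample (adjusted p 0.0505 to 0.0654), and Clu without the C2C12 2 sample (adjusted p = 0.0653). Settings further changed the higher count of the antigen presentation list, 6 (3 within slide 2), the lower count of the antigen presentation list, 3 (0 without the C2C12 1 or C2C12 2 sample, 1 with the slide as a block and within slide 2) and the higher count of the complement list, 4 (2 without the ventricle sample, 1 without the C2C12 1 sample, 0 without the C2C12 2 sample, 1 with the slide as a block, 0 within slide 2).

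Few proliferation genes were called. Of 31 tested 2 were higher and 1 lower, with a median difference of 0.00 (0.02 with the slide as a block and within slide 2). Mki67 read 4.52, 4.67 and 4.91 against 4.46 and 4.51 (0.21, SE 0.16), and Top2a, Pcna, Cdk1 and Aurkb were likewise not called. Cyclin D1, Ccnd1, was higher by 1.93 (SE 0.41), Ccnd2 by 4.76 (SE 1.33, adjusted p = 0.037), and Ccnb2 was lower (-1.22). Among 26 genes of cell cycle arrest and the p53 response 2 were higher and 4 lower, with a median difference of -0.19 (-0.25 with the slide as a block and within slide 2). The higher count was 0 without the ventricle or aorta sample, where Cdkn2b, on the WT-labelled arrays alone, was not tested. Cdkn2b (p15), a cyclin D kinase inhibitor, read 2.52, 2.46 and 2.36 against -7.94 and -7.38, at least 253-fold higher (adjusted p = 2.73e-06), and Cdkn1b (p27) was lower (-1.43). Cdkn1a (p21) was not called (-1.45, adjusted p = 0.378), with its 3 WT-labelled values far apart. The threshold was missed with the slide as a block by Ccnd2 (adjusted p = 0.151) and Ccnb2 (adjusted p = 0.0675). When samples were left out in turn, the call ended for Ccnd1 without the C2C12 2 sample (adjusted p = 0.094), Ccnd2 without any 1 sample (adjusted p 0.0521 to 0.149), and Ccnb2 without the C2C12 1 or C2C12 2 sample (adjusted p 0.0658 to 0.119). Other settings moved by over 1.5 times the lower count of the proliferation list, 1 (4 without the atrium sample), the higher count of the arrest and p53 list, 2 (7 without the atrium sample) and the lower count of the arrest and p53 list, 4 (2 without the ventricle, aorta, C2C12 1 or C2C12 2 sample, 2 with the slide as a block and within slide 2).

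Within the WT-labelled samples the atrium stood apart, and p53 response genes were a clear instance. It lay at least 1 log2 unit below both other samples for 1223 of the 15807 genes (7.74%) and above both for 815 (5.16%). Of the 26 genes of arrest and the p53 response 9 were below (34.6%) and 0 above. Cdkn1a read -0.21, 3.37 and 3.40 in atrium, ventricle and aorta, Ccng1 0.92, 4.20 and 4.01, Zmat3 -0.21, 2.73 and 2.92 and Mdm2 0.47, 2.18 and 2.56, while C2C12 values were 4.17 and 3.1, 2.88 and 2.94, 1.64 and 1.52 and 1.65 and 1.61. Each of these is induced by p53, and in each the atrium was the lowest of the 5 samples. Trp53inp1 read -3.35, 2.26 and 2.0 and Btg2 -2.67, 0.41 and 0.21. The matrix list had 12 of 37 genes below (32.4%), the smooth muscle list 6 of 12 and the complement list 4 of 9. With 1 sample per region these are single values with no test, and they were chosen after the values were seen.

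Several genes of sterol and lipid synthesis were lower. Of glycolysis genes 13.3% were higher and 26.7% lower, and of redox genes 20% and 20%, against 13.8% and 13.2% of all genes. In glycolysis and the hypoxia response 2 of 15 were higher and 4 lower, with a median difference of -0.09 (-0.33 with the slide as a block and within slide 2); the hydroxylase Egln3 and the glucose transporter Slc2a3 were at least 71.8-fold and 25.3-fold lower, the peptide Adm was higher by 3.91 (SE 0.31), and Slc2a1 (-0.21) and Ldha (0.01) were not called. Redox and detoxification genes gave 3 higher and 3 lower of 15, with a median difference of 0.06 (0.11 with the slide as a block and within slide 2), and Nqo1 was not called (-0.20). Of 14 genes of sterol and lipid synthesis 8 were lower and 0 higher, with a median difference of -1.42 (-2.0 with the slide as a block and within slide 2). Fdps, of the mevalonate pathway, read 2.18, 2.67 and 2.17 against 3.74 and 5.67 (-2.36, SE 0.51), the desaturase Scd1 differed by -1.58 and Insig1, a regulator of sterol synthesis, by -2.12. Of 10 genes often used as references, Gapdh (0.01) and Actb (0.23) were not called, and Tbp was higher (0.46). Under the slide block the call was lost for Tbp (adjusted p = 0.179). Dropped singly, samples ended the call for Scd1 without the ventricle, aorta or C2C12 2 sample (adjusted p 0.0714 to 0.105), Insig1 without the atrium, aorta or C2C12 2 sample (adjusted p 0.0643 to 0.219), and Tbp without the ventricle, aorta, C2C12 1 or C2C12 2 sample (adjusted p 0.0911 to 0.172). A change by over 1.5 times was seen in the lower count of the glycolysis list, 4 (2 without the aorta, C2C12 1 or C2C12 2 sample, 2 with the slide as a block and within slide 2), the higher count of the redox list, 3 (0 without the C2C12 1 sample, 0 with the slide as a block and within slide 2), the lower count of the redox list, 3 (0 without the C2C12 1 sample, 1 without the C2C12 2 sample, 0 with the slide as a block) and the lower count of the sterol list, 8 (3 without the aorta or C2C12 2 sample).

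Outside the lists, the genes with the largest differences on arrays where both groups were detected included Grb14, an insulin receptor adaptor, at 1.45, 3.47 and 3.12 against -4.72 and -3.69 (6.89, SE 0.67). Nrn1 (neuritin) differed by 6.69, Tmem176b by 6.43, the OAS family member Oasl1 by 6.40, the urea transporter Slc14a1 by 6.15, the kinase Prkd1 by 5.96, the acyl-CoA thioesterase Acot1 by 5.89 and Lgalsl by 5.70. Lower were the LIM proteins Crip1, at -3.96, -3.37 and -3.86 against 4.30 and 4.91 (-8.33, SE 0.26), Crip2 (-7.15) and Pdlim4 (-6.96), with Pbxip1 (-7.44) and the transporter Slc16a11 (-6.97). The Iroquois factor Irx1 read 4.05, 4.22 and 4.34 against -6.40 and -6.33, on no C2C12 array and at least 851-fold higher. Rnf130 and Thumpd1 were at least 459-fold and 359-fold higher, and of the 2 probes of Thumpd1 only 1 was called. On the lower side Syt13, Tmem37 and Bves, a muscle membrane protein, were at least 844-fold, 653-fold and 553-fold lower. Of the genes with the largest differences, 2 higher and 1 lower had no RefSeq symbol. With the slide as a block, the call ended for Slc14a1 (adjusted p = 0.121). The calls that ended when 1 sample was left out were Slc14a1 without the ventricle, aorta, C2C12 1 or C2C12 2 sample (adjusted p 0.0863 to 0.154), and Thumpd1 without the atrium, ventricle or aorta sample (adjusted p 0.148 to 0.206).

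The Klra genes, a cluster of near-identical natural killer cell receptor genes (Ly49), were called higher for all 11 tested, 7 of them with a RefSeq symbol, by 2.69 to 10.79. The WT-labelled values ran from -4.03 to 3.40, C2C12 values from -8.10 to -4.68 and KO-labelled values from -7.68 to -5.36, and 9 of the 11 were on no C2C12 array. Since 10 of the 11 were tested only by way of the WT-labelled arrays, the common direction was largely fixed by the choice of genes to test. Klra13-ps, a pseudogene, read 2.09, 2.24 and 1.81 against -5.01 and -4.68 (6.89, SE 0.29), and Klra1 and Klra7 were at least 312-fold and 308-fold higher. Probes of such close copies can share signal, so the 11 are not separate measurements, and the family was singled out after its values were seen.

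The X-linked Xist RNA, which silences 1 X chromosome in female cells, read -6.84, -7.76 and -6.61 in the WT-labelled and 3.11 and 1.87 in the C2C12 samples, at least 169-fold lower (adjusted p = 2.38e-05). The Y-linked genes Ddx3y, Eif2s3y, Kdm5d and Uty were not well above background on any of the 11 arrays.

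The KO-labelled samples, measured against the same C2C12 samples, gave 198 called genes (1.25% of those tested), and WT-labelled against KO-labelled samples gave 5120 (32.4%). Crip1 differed by 0.03 in the KO-labelled cells, Nes by -0.06, Thy1 by 1.12, Dlk1 by 1.70 and H2-K1 by 1.71, and none of these 5 was called. Both sets of differences use the same C2C12 samples and so are not independent.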

How the data were processed

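RNA was labelled with Cy3 and hybridised to 1-colour Agilent arrays, 1 per sample, per the labels' protocols. The deposited intensity values are processed signals; the submitters' processing notes name Agilent Feature Extraction 9.5.3.1. They are background-subtracted and detrended but not scaled between arrays, per the file headers. The deposited series-wide table holds log2 of the same signals: on every array 99.8% of its values lie within 0.010 of log2 of the signal, with centring at 0. Scaling here took log2 of each signal minus the log2 75th percentile of its array. A probe was kept if 3 or more of the 11 arrays had it well above background, genes were named through RefSeq (24340 probes by accession, 6299 by symbol, 2418 by synonym, 8064 keeping the file's name), and the probe with the highest mean stood for a gene. No spot was saturated.

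All 8 joined samples (3 WT-labelled, 2 C2C12, 3 KO-labelled) entered 1 fit with limma 3.58.1 (lmFit and eBayes, R 4.3.3), checked on simulated data, with Benjamini-Hochberg adjustment over 15807 genes and a threshold of 0.05. The slide fit added the slide as a block. Tables and plots used Python 3.11.15. Other settings tried were normexp background correction (offset 50), median and quantile scaling, the series-wide table, other filters, WT-labelled and C2C12 samples only, every array as a sample, slide 2 only, the mean over probes, each sample left out, and C2C12 1 from 1 of its 2 arrays. The last of these and the ISRE search were added after seeing the data. The members of the comparison and the gene lists were chosen with earlier results of these data known.

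Named genes are the 12 called with the largest difference in each direction on all arrays of both groups, the 12 with the largest lower bound in each direction, the first 2 of each list with up to 4 called members in each direction, and further members where a list is described; some genes that this rule picks are not reported here. The number of arrays limits the precision. Probe positions in the files follow mouse build mm8; promoter coordinates are GRCm38.p6.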

Additional observations from a re-analysis of the deposited data

Results flagged for a closer look

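The WT-labelled and KO-labelled cells differed in their contrasts with the same C2C12 samples. The difference between these contrasts is that of WT-labelled and KO-labelled cells, and of the 4265 genes called between WT-labelled cells and C2C12, 3414 were called in it in the same direction (limma, Benjamini-Hochberg adjusted p under 0.05), where 5120 of all 15807 genes (32.4%) were called in either direction. The KO-labelled cells themselves differed from C2C12 at 198 genes. These contrasts share the WT-labelled samples, so the count is no independent result, and all WT-labelled arrays lay on slide 2. Sgcb did not separate the KO-labelled samples as their label describes.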

How the results depend on the processing

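Counts of called genes moved by over 1.5 times under these settings, with the number higher and lower in WT-labelled cells in that order: normexp background correction gave 2508 genes (1062 and 1446), every array as its own sample 6661 (3473 and 3188), the slide as a block 2286 (1163 and 1123) and slide 2 only 1291 (568 and 723). Leaving out each sample in turn gave 2273 to 5624 called genes, 1166 to 2754 higher and 1107 to 2870 lower. The lowest came without C2C12 1 and the highest without the WT-labelled atrium sample, and where 1 C2C12 sample remained it was assumed to vary like the other groups. Median scaling gave 3905 genes, 46.3% of them higher against 51.0% in the reported fit. With no filter 3378 of 27567 genes were called and the median of all genes moved to 0.34. No paired analysis was possible because the labels give no replicate numbers, so sample numbers only name the samples. The slide block, slide 2 only and the fit without C2C12 1 all set the same WT-labelled samples against C2C12 2 alone. They are therefore not separate checks.

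Of 218 called genes named in the text, 43 lost the call without some sample (up to 34 of them without 1 sample, C2C12 2), 32 with the slide as a block and 54 within slide 2. Over 3847 values of these genes under the alternatives 3581 kept direction and call, 262 kept the direction and lost the call, and 4 reversed. A gene not tested under a setting has no value there and is not counted as losing its call. Genes on the WT-labelled arrays alone, among them Thy1, Irx1 and Mx2, had values under only 15 of the 18 alternatives. H2-D1 became 1.03 with WT-labelled and C2C12 samples only and 0.76 within slide 2, and Myl3 became 0.14 with WT-labelled and C2C12 samples only. The mean over probes gave Ryr1 -3.42. Fn1, not called, became 1.03 without the WT-labelled atrium sample and -0.64 without the aorta sample. These genes have several probes that differ, and the cause was not tested. Of 756 list medians under the alternatives 644 moved by less than the spread between samples.

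Genes near the floor of the arrays have bounds in place of differences, and the 3 against 2 design limits every p-value.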

Other observations

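Keratins and claudins of epithelium gave 3 tested genes, of which Krt14 was lower. Of the genes tested, 178 differed by at least 4-fold without being called, and 42 of the 1484 called genes with several tested probes had a probe called the other way. The arrest gene Cdkn2a, too dim for the test, was well above background on 2 of the 3 WT-labelled arrays and on no C2C12 array.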
